A study of Homo sapiens with 6 samples.

Results

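The core genes of mTOR signalling were examined in 8505C cells, an established line of human anaplastic thyroid cancer, after knockdown of the kinetochore gene NUF2, in a comparison that asks how gene expression differs once NUF2 is depleted. The 10 genes, chosen by name, were MTOR, RPTOR, RICTOR, MLST8, RPS6KB1, RPS6KB2, EIF4E, EIF4EBP1, TSC1 and TSC2, out of 32985 genes in the expression file. Each had a single row, and all 10 passed the filter on low values (an average FPKM of 1 or more across all 6 libraries), which 11725 genes passed. Poly(A) RNA was sequenced from 3 libraries of cells given a control siRNA (siCtrl, genotype label WT). Another 3 libraries were from cells given an siRNA against NUF2 (siNUF2, genotype label NUF2 knockdown). All 6 are labelled 24 h, and the labels do not say from what point. A single NUF2 siRNA sequence is given in the study's methods. All libraries came from 1 cell line, and nothing in the labels says that they came from separate cultures, so the p-values measure the spread between these libraries, which may be technical.

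The mTOR kinase works in a pair of complexes that share MLST8. In mTORC1, RPTOR brings substrates to the kinase, and the complex phosphorylates the S6 kinases and the 4E-BP proteins, which releases the cap-binding protein EIF4E for translation initiation. In mTORC2, RICTOR takes the place of RPTOR and Akt is a main substrate, while TSC1 and TSC2 hold mTORC1 down by acting on the small GTPase Rheb. These steps run by phosphorylation and binding of proteins, whereas the libraries measured mRNA.

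Total counts ran from 61257859 to 69755291 per library. FPKM stands for sequenced fragments, corrected for a length set per gene and for the size of the library. NUF2 is a subunit of the NDC80 complex, which ties microtubules to the kinetochore. Its FPKM was 14.8, 14.5 and 12.2 in siCtrl libraries 1, 2 and 3. In siNUF2 libraries 1, 2 and 3 it was 1.53, 2.05 and 1.56. The knocked-down libraries therefore kept 12.4% of control NUF2 mRNA, a log2 fold change of -2.99 (SE 0.17) with a Benjamini-Hochberg adjusted p of 5.1e-04 by edgeR's quasi-likelihood test. The epithelial keratins KRT8 and KRT18 and the mesenchymal VIM were at an FPKM of 72.0 or more in every library. Of the other epithelial markers, KRT19 was between 5.37 and 12.4, EPCAM did not exceed 0.243 and CDH1 did not exceed 0.0227. The thyroid factor NKX2-1 was between 14.6 and 21.5, while the thyroid genes FOXE1, TG and SLC5A5 did not exceed 0.0281. The summed FPKM of 3 leukocyte, 3 endothelial and 3 fibroblast markers did not exceed 2.74, 3.15 and 3.91 in any library.

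Of the 10 core genes, RPS6KB1 fell in siNUF2 cells, and the other 9 did not pass the test. Over all genes tested, 3.99% were called in either direction and 2.46% were called lower, at an adjusted p under 0.05. With the replicate number as a block, RPS6KB1 was again the 1 core gene called, beside 14.5% of all genes tested. The median log2 fold change was -0.05 over the 10 core genes and 0.01 over all genes tested, and the median size of the change without its sign was 0.114 against 0.170. Of the 10 estimates, 7 were below 0 and 3 above, and 9 had a 95% confidence interval that included 0. None of the 10 mean FPKM values changed 2-fold. RPS6KB1 was also the only core gene whose 3 siNUF2 libraries did not overlap the 3 siCtrl libraries in FPKM, which held for 23.9% of all genes tested, 13.4% with siNUF2 lower and 10.5% with siNUF2 higher.

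**Figure D1:**
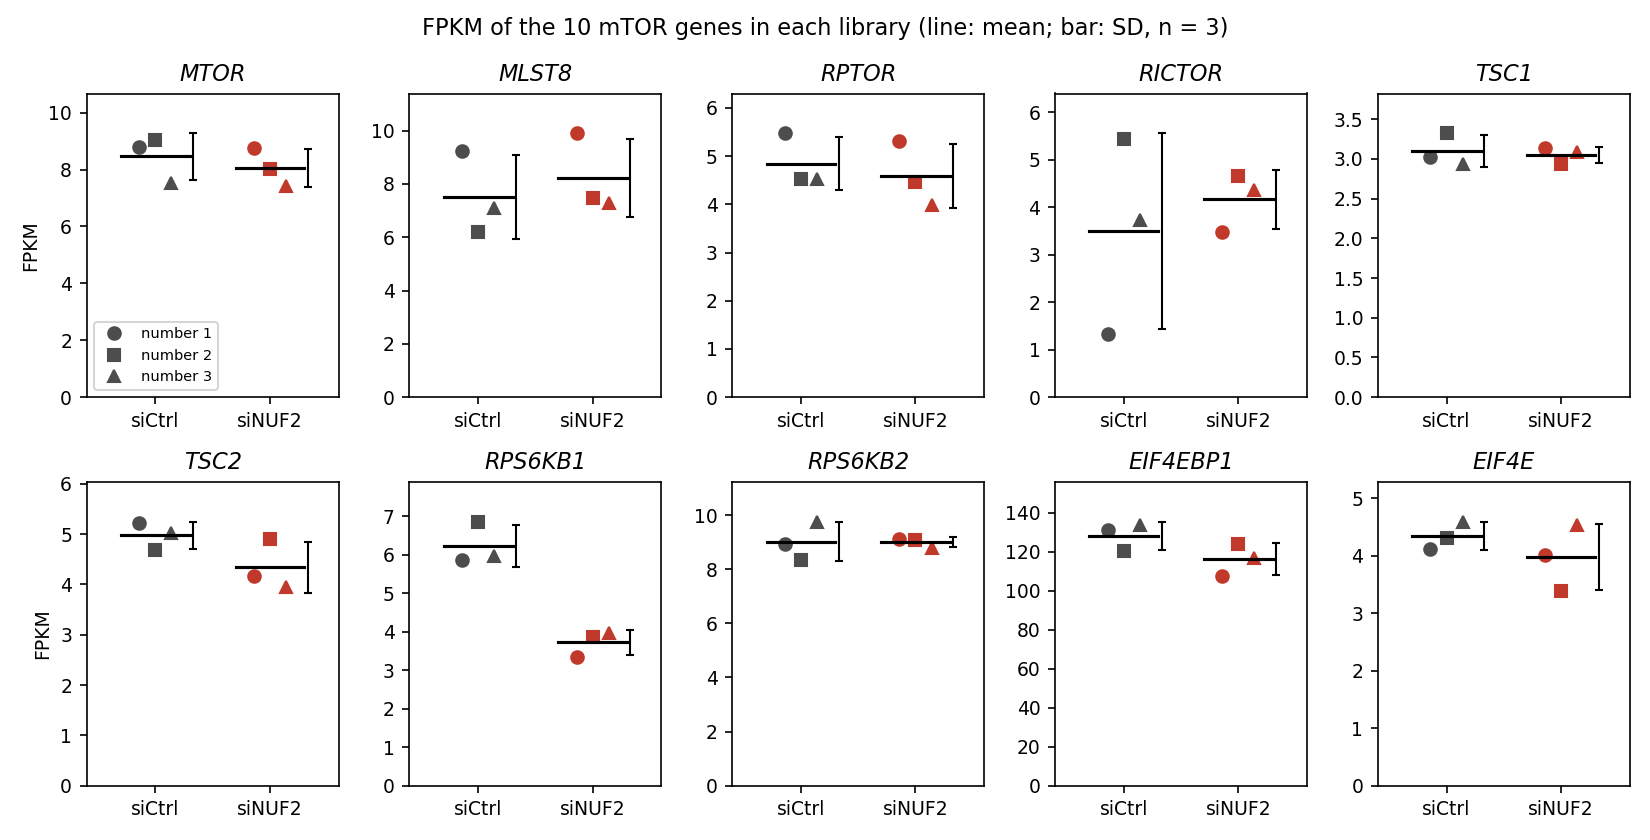
FPKM of the 10 core mTOR genes, 1 panel per gene with its own axis from 0, for siCtrl (grey) and siNUF2 (red) libraries, with the replicate number as the marker shape, the group mean as a line and the SD (n = 3) as a bar. The RPS6KB1 points of the groups are apart (5.86 to 6.86 against 3.35 to 3.98), EIF4EBP1 needs an axis reaching far above the rest, and siCtrl library 1 of RICTOR lies low at 1.33.

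The S6 kinases phosphorylate ribosomal protein S6 and other translation factors downstream of mTORC1. RPS6KB1 (ENSG00000108443, GRCh38 chr17:59893046-59950421, plus strand), which encodes S6K1, had an FPKM of 5.86, 6.86 and 5.98 in siCtrl libraries 1, 2 and 3. It had 3.35, 3.85 and 3.98 in siNUF2 libraries 1, 2 and 3. The groups did not overlap, and counts of 1999 to 2385 against 3426 to 4276 lay behind these values. The mean dropped from 6.23 ± 0.548 to 3.73 ± 0.331 FPKM (SD, n = 3 each), or 59.8% of control. The log2 fold change was -0.72 (SE 0.12, 95% confidence interval -1.0 to -0.44, adjusted p = 0.0179, edgeR's quasi-likelihood test). Within replicate numbers 1, 2 and 3 the siNUF2 minus siCtrl difference was -0.80, -0.80 and -0.57 on the log2 scale of counts per unit of library size (log2 CPM). Since the RNA is from whole cultures, less RPS6KB1 mRNA in every cell and loss of it in some of the cells cannot be told apart.

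The call for RPS6KB1 depended on the number of libraries and on the test. Leaving out siCtrl library 1, 2 or 3 gave adjusted p-values of 0.0551, 0.0666 and 0.0597 with edgeR, and leaving out siNUF2 library 1 gave 0.0751, with the log2 fold change between -0.77 and -0.64 over all 6 omissions. The F-test on log2(FPKM + 1), the study's kind of test, gave an adjusted p of 0.0872. The study's own rule was a p under 0.05, with no adjustment stated, together with a change of more than 2-fold. An adjusted p is therefore stricter than the p of that rule.

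RPS6KB2 (chr11:67428460-67435401, plus strand), which encodes the related kinase S6K2, showed no such difference. The siCtrl libraries had an FPKM of 8.95, 8.33 and 9.76 and the siNUF2 libraries 9.11, 9.08 and 8.78. The groups overlapped, the siNUF2 mean was 99.8% of control, and the 95% confidence interval of the log2 fold change ran from -0.21 to 0.24 (adjusted p = 0.952, edgeR). The FPKM ratio of RPS6KB1 to RPS6KB2 within a library was 0.655, 0.824 and 0.613 in siCtrl and 0.368, 0.424 and 0.453 in siNUF2. All 3 siNUF2 ratios were below all 3 siCtrl ratios, a log2 difference of -0.74. The exact two-sided permutation p was 0.1, the smallest that 3 against 3 libraries allow, and 0.4 after adjustment over the 4 ratios tested. With differences taken within replicate numbers, the exact two-sided permutation p of their signs was 0.25, the smallest that 3 pairs allow.

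**Figure D2:**
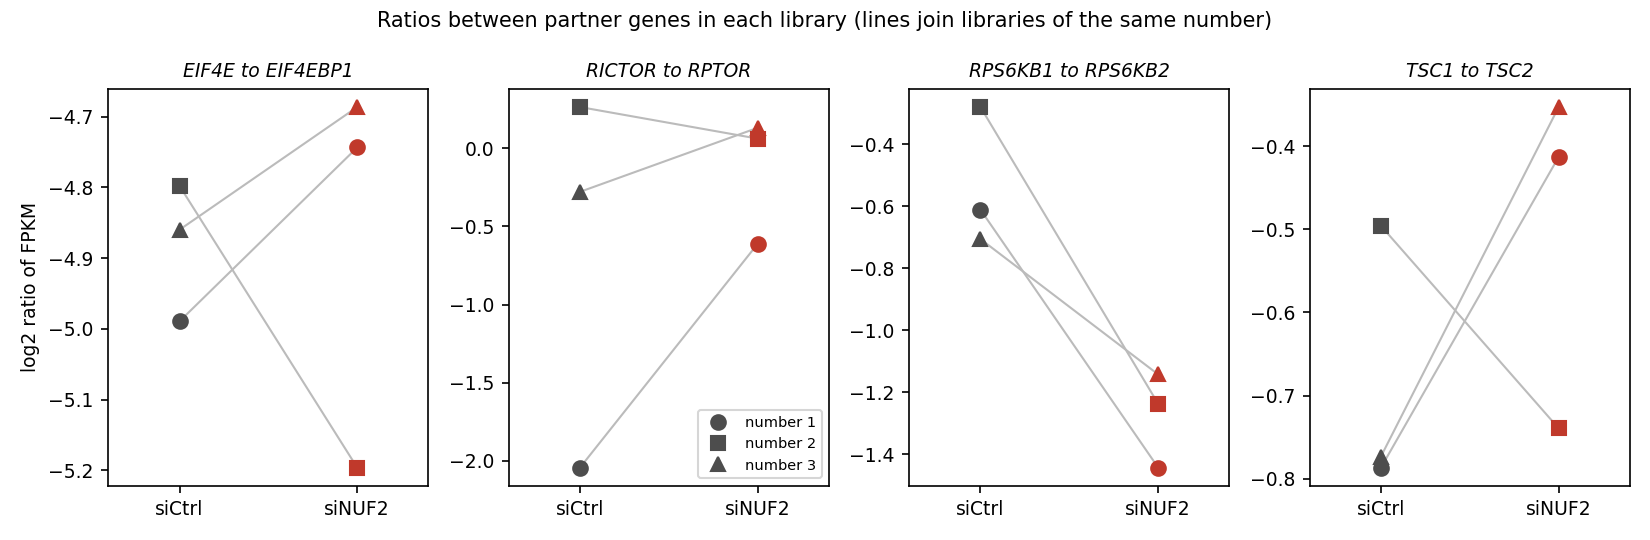
Log2 ratio of FPKM for 4 pairs of core genes in each siCtrl (grey) and siNUF2 (red) library, with a separate axis for each pair and lines joining libraries of the same replicate number. The ratio of RPS6KB1 to RPS6KB2 is the 1 of the 4 in which the groups do not overlap, with mean log2 ratios of -0.53 and -1.27.

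The RPS6KB1 mRNA holds the 7-base word TATGGAA at 2 places of its coding sequence. This word pairs fully with bases 2 to 8, counted from the 5′ end, of the antisense strand that a siRNA against the NUF2 target carries. It was searched in the sense strand of the canonical transcripts of GENCODE release 44. Of the 10296 tested genes with such a coding transcript, 26.9% hold it in the coding sequence or 3′ UTR. In the coding sequence alone, 2.75% hold it 2 or more times, a cut that is what RPS6KB1 itself shows. With the 3′ UTR counted as well, 6.98% hold it 2 or more times. The 3′ UTR of RPS6KB1, of 3786 bases, does not hold it. The siRNA target in exon 6 of the 14 exons of NUF2 (chr1:163336814-163336834, plus strand) and the windows of RPS6KB1 in exon 3 (chr17:59912783-59912803) and exon 6 (chr17:59930144-59930164) of 15, all coding, are shown with the word in capitals so that the match can be compared along its length.
NUF2 target: gccgtgaaacgtaTATGGAAt
RPS6KB1 exon 3: tggtaaagggggcTATGGAAa
RPS6KB1 exon 6: gagagggaatattTATGGAAg
Over the 21 bases, these windows of RPS6KB1 had 9 and 12 bases identical to the target. Both values include the 7 bases of the word by which the windows were picked. A match of letters is a description, and its part in the fall of RPS6KB1 was not tested.

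The word is not particular to RPS6KB1 among the core genes. Of the 10, 5 hold it in the coding sequence or 3′ UTR of the canonical transcript, against 26.9% of tested genes. That share was not matched for transcript length. Coding sequence and 3′ UTR together were 2.41 (EIF4E) to 9.51 kb (RICTOR) in the 5. In core genes without the word they were 0.787 (EIF4EBP1) to 8.6 kb (MTOR). RPS6KB1 alone of the 10 holds the word more than once, as do 6.98% of tested genes. It lies in coding exon 19 of 34 of RPTOR (chr17:80892781-80892801), exon 11 of 38 of RICTOR (chr5:38971882-38971902, minus strand) and exon 7 of 23 of TSC1 (chr9:132921901-132921921, minus strand). In EIF4E it lies in the 3′ UTR, in exon 7 of 7 (chr4:98879866-98879886, minus strand).
RPTOR: ttctgtgagctccTATGGAAa
RICTOR: tttgcataccaaaTATGGAAa
TSC1: ctttcatcgccttTATGGAAt
EIF4E: gtagtatcatataTATGGAAt
These windows had 10, 11, 10 and 14 of 21 bases identical to the target, with the 7 bases of the word included in each. The log2 fold changes of these 4 genes were -0.06, 0.27, -0.0012 and -0.11, and none passed the test. MTOR, MLST8, RPS6KB2, EIF4EBP1 and TSC2 do not hold the word in these parts of their canonical transcripts.

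MTOR and the subunits of its complexes did not pass the test. MTOR (chr1:11106535-11262551, minus strand), the kinase itself, had an FPKM of 8.80, 9.06 and 7.53 with control siRNA and 8.74, 8.02 and 7.41 with NUF2 siRNA. The groups overlapped, with 95.2% of the control mean in siNUF2 cells. Its log2 fold change was -0.05 (SE 0.11, 95% confidence interval -0.30 to 0.20, adjusted p = 0.862, edgeR).

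RPTOR (chr17:80544819-80966368, plus strand), the mTORC1 scaffold, had an FPKM of 5.48, 4.53 and 4.52 in siCtrl and 5.31, 4.46 and 3.99 in siNUF2 cells. Libraries of the same number lay close together, at log2 CPM differences of -0.04, 0.01 and -0.16. MLST8 (chr16:2204248-2209453, plus strand), the subunit that both complexes share, had 9.25, 6.20 and 7.10 in siCtrl and 9.91, 7.47 and 7.27 in siNUF2 cells. Library 1 was the highest of each group for RPTOR and for MLST8, and for neither gene were the groups apart. The log2 fold changes were -0.06 (95% confidence interval -0.36 to 0.25) for RPTOR and 0.15 (-0.27 to 0.57) for MLST8. The antisense neighbour BRICD5 shares 201 bases with MLST8. BRICD5 had an FPKM of 1.49, 1.21 and 2.07 in siCtrl and 0.731, 0.785 and 0.603 in siNUF2 libraries. The strand setting of the counting is not given in the sources used here.

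RICTOR (chr5:38937920-39074399, minus strand), which defines mTORC2, varied more among the control libraries than between the groups. Its FPKM was 1.33, 5.44 and 3.72 in siCtrl libraries 1, 2 and 3, from counts of 1455, 5958 and 3748. The siNUF2 libraries had 3.48, 4.65 and 4.37. Control library 1 lay below all other libraries, and control library 2 above them. The control libraries spanned 2.02 on the log2 CPM scale, a range that 1.13% of tested genes exceeded, against a median of 0.309. The log2 fold change was 0.27 (SE 0.42, 95% confidence interval -0.68 to 1.23, adjusted p = 0.796, edgeR). It was -0.11 without siCtrl library 1 and 0.74 without siCtrl library 2, so its sign rested on 1 control library. With the replicate number as a block, the log2 fold change was 0.47 (95% confidence interval -0.13 to 1.07, adjusted p = 0.268, edgeR). Within replicate numbers 1, 2 and 3 the siNUF2 minus siCtrl difference was 1.39, -0.19 and 0.25 in log2 CPM. A level under 40% of both other control libraries was seen in siCtrl library 1 for 49 of the 11725 tested genes (0.418%). OSMR, on the opposite strand, overlaps RICTOR over 7677 bases, and its FPKM of 16.8, 17.5 and 20.1 in siCtrl libraries 1, 2 and 3 did not follow that of RICTOR.

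The ratio of RICTOR to RPTOR, which sets the defining subunits of mTORC2 and mTORC1 side by side, was 0.243, 1.20 and 0.824 in siCtrl and 0.655, 1.04 and 1.09 in siNUF2 cells. The low value belongs to siCtrl library 1, where RICTOR itself was low. The log2 difference of 0.55 was smaller than the SD of 1.21 among control libraries (exact two-sided permutation p = 0.7, adjusted 0.933), and it was -0.13 without siCtrl library 1.

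EIF4EBP1 (chr8:38030534-38060365, plus strand), which encodes the translation repressor 4E-BP1, had the highest FPKM of the 10 genes, ranking 258 of the 32985 genes by mean FPKM. Control libraries had an FPKM of 131, 120 and 134, and siNUF2 libraries had 108, 124 and 117. The siNUF2 library 2 lay inside the control range and the other two below it. The mean was 128 ± 7.16 against 116 ± 8.19 (SD, n = 3 each), and the log2 fold change was -0.12 (95% confidence interval -0.35 to 0.11, adjusted p = 0.601, edgeR).

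EIF4E (chr4:98871684-98930637, minus strand), the cap-binding protein that 4E-BP1 holds back, had an FPKM of 4.13, 4.32 and 4.60 in siCtrl and 4.02, 3.38 and 4.54 in siNUF2 cells. The siNUF2 libraries 1 and 2 lay under the control range, library 2 by more, and the log2 fold change was -0.11 (95% confidence interval -0.39 to 0.17). The FPKM ratio of EIF4E to EIF4EBP1 had a geometric mean of 0.0339 in siCtrl and 0.0341 in siNUF2 cells, a log2 difference of 0.01 with an exact two-sided permutation p of 1. The gap in level between them rests largely on the lengths used for FPKM. The FPKM of EIF4EBP1 was 25.8 to 36.7 times that of EIF4E within a library, while its counts were 1.61 to 2.29 times those of EIF4E. Counts, FPKM and library totals together imply a length of 16.2 to 16.5 kb for EIF4E and of 1.01 to 1.03 kb for EIF4EBP1, against 2.41 and 0.787 kb of coding sequence and 3′ UTR in their canonical transcripts.

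TSC1 and TSC2 encode hamartin and tuberin, the partners of the complex that restrains mTORC1. TSC1 (chr9:132891348-132946874, minus strand) had an FPKM of 3.03, 3.32 and 2.94 in siCtrl and 3.13, 2.93 and 3.09 in siNUF2 cells. TSC2 (chr16:2047967-2089245, plus strand) had 5.22, 4.69 and 5.03 in siCtrl and 4.17, 4.90 and 3.94 in siNUF2 cells. The groups overlapped for both, TSC1 with intermixed libraries and TSC2 through siNUF2 library 2, which lay above siCtrl library 2. The 95% confidence interval of the log2 fold change ran from -0.21 to 0.21 for TSC1 and from -0.44 to 0.08 for TSC2, whose adjusted p of 0.474 (edgeR) was the lowest among the 9 core genes that did not pass. The ratio of TSC1 to TSC2 was 0.580, 0.709 and 0.585 in siCtrl and 0.751, 0.599 and 0.783 in siNUF2 cells, a log2 difference of 0.18 (exact two-sided permutation p = 0.2, adjusted 0.4). PKD1 overlaps TSC2 on the opposite strand over 538 bases, with an FPKM of 2.31 to 3.18.

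**Figure D3:**
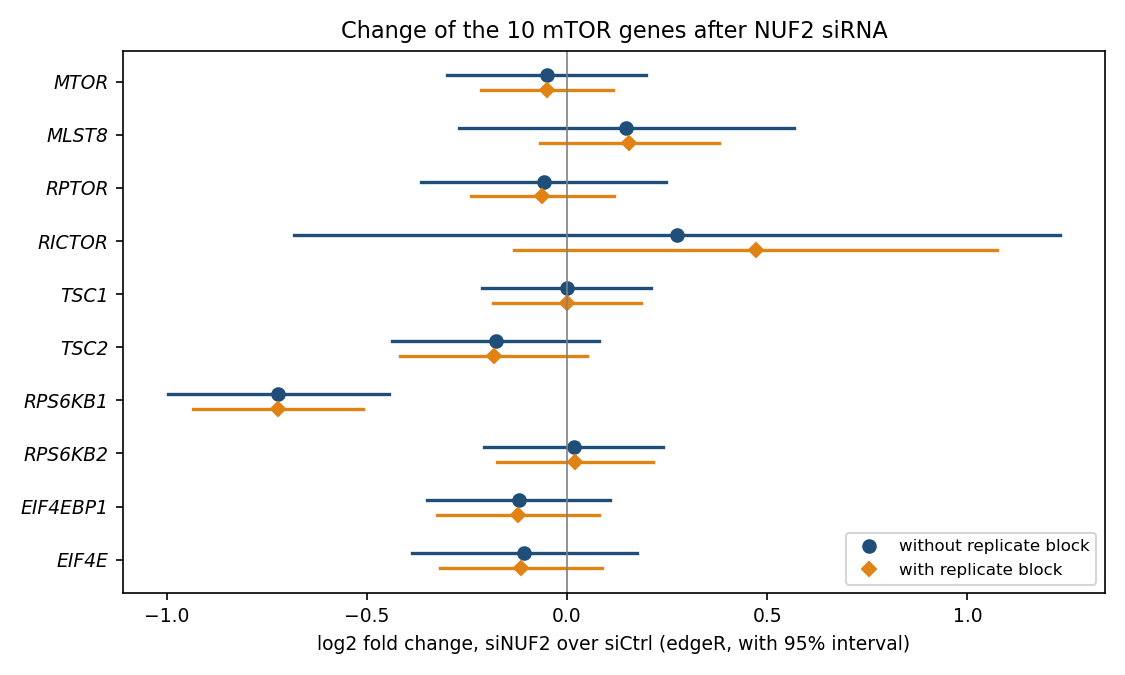
Log2 fold change of siNUF2 over siCtrl for the 10 core genes from edgeR, without (circles) and with (diamonds) the replicate number as a block, each with its 95% confidence interval as a line. The interval of RPS6KB1, -1.0 to -0.44 without the block, is the 1 of 10 that leaves out 0, and that of RICTOR is the widest, from -0.68 to 1.23.

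Ordered by mean FPKM, the control cells had EIF4EBP1, RPS6KB2, MTOR, MLST8, RPS6KB1, TSC2, RPTOR, EIF4E, RICTOR and TSC1. The library ranges of neighbours in this order overlapped except between EIF4EBP1 and RPS6KB2 and between RPS6KB1 and TSC2. In siNUF2 cells the order was EIF4EBP1, RPS6KB2, MLST8, MTOR, RPTOR, TSC2, RICTOR, EIF4E, RPS6KB1 and TSC1. There the ranges were apart between EIF4EBP1 and RPS6KB2, between MTOR and RPTOR and between RPS6KB1 and TSC1. RPS6KB1 moved from place 5 to place 9, and no other core gene moved by more than 2 places. The order within a group depends on the lengths behind the FPKM values, which were 1.30 (EIF4EBP1) to 6.81 (EIF4E) times the coding sequence and 3′ UTR of the canonical transcript, whereas the comparison of 1 gene between groups does not. Within replicate numbers, the 3 differences had the same sign for 4 of the 10 core genes (MLST8, MTOR, EIF4E and RPS6KB1), or 40%, against 51.8% of all genes tested. Some of these differences were near 0, such as -1.9e-04 for EIF4E in number 3 and -0.0032 for MTOR in number 1.

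The genes whose centred log2 CPM over the 6 libraries lay nearest to that of RPS6KB1 were HCFC2, C6orf120 and MEAF6. Their root mean square differences from it were 0.0565, 0.0589 and 0.0606, and their log2 fold changes were -0.67, -0.70 and -0.75. These genes were picked for likeness over the same 6 libraries, so fold changes near that of RPS6KB1 follow from the choice. HCFC2 holds the word TATGGAA 2 times in its coding sequence and MEAF6 2 times in its 3′ UTR. C6orf120 does not hold it in either. Of tested genes, 26.9% hold it in either part and 6.98% hold it 2 or more times. The part of the word in these changes was not tested.

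Beyond the core, 85 further genes of the mTOR pathway were listed in 9 groups by role, and 77 of them passed the filter. SAMTOR and EIF4E2 fell in siNUF2 cells, and 0 of the 77 rose by edgeR's test. The median log2 fold change of the 77 genes was 0.07, with 44 estimates above 0 and 33 below. An unadjusted p under 0.05 was seen for 19 of the 77, and for 18.2% of all genes tested. When the fit took replicate numbers as a block, 8 of the 77 were called higher and 5 lower, beside 6.64% of all genes tested called higher and 7.91% called lower. Without the block, the background was 1.53% called higher and 2.46% called lower.

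SAMTOR (listed as BMT2, chr7:112819147-112939875), the sensor of S-adenosylmethionine that acts on mTORC1 through GATOR1, had an FPKM of 3.95, 4.31 and 4.08 in siCtrl and 1.13, 1.48 and 1.79 in siNUF2 cells. The groups were far apart, with a log2 fold change of -1.46 (SE 0.20, adjusted p = 0.00929, edgeR). EIF4E2 (chr2:232550674-232583642), the cap-binding protein 4EHP, which competes with EIF4E and represses translation, had 10.8, 10.6 and 11.3 in siCtrl and 7.02, 6.22 and 7.35 in siNUF2 cells. Every siNUF2 library was again below every control library, with a log2 fold change of -0.65 (SE 0.10, adjusted p = 0.0127, edgeR). SAMTOR stayed under the threshold without any 1 of the 6 libraries, whereas EIF4E2 had an adjusted p of 0.0525, 0.0561 and 0.0611 without siCtrl library 1, siCtrl library 3 and siNUF2 library 1. The F-test gave adjusted p-values of 0.0614 for SAMTOR and 0.0630 for EIF4E2, where the study's rule states no adjustment. Their means were 35.7% and 62.8% of control, so SAMTOR, but not EIF4E2, changed more than 2-fold.

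Both mRNAs hold the word TATGGAA, and they were examined for it because they were called in these data. Of tested genes, 26.9% hold it in the coding sequence or 3′ UTR, and 14.9% hold it in the 3′ UTR. It occurs 2 or more times in the coding sequence of 2.75%. In EIF4E2 it lies at 2 places in coding exon 6 of 7 (chr2:232567081-232567101 and chr2:232567169-232567189, plus strand), and in SAMTOR in the 3′ UTR, in exon 5 of 5 (chr7:112820790-112820810, minus strand).
EIF4E2 first: gacattatttcaaTATGGAAt
EIF4E2 second: ctcccaacaccatTATGGAAt
SAMTOR: aagtttcaaattaTATGGAAa
The windows had 13, 12 and 12 of 21 bases identical to the target, with the 7 bases of the word included in each. What part the word had in these changes was not tested. Of the 11 other pathway genes called only with the block, FNIP1 holds the word 1 time and PRKAA2 2 times, both in the 3′ UTR, and the other 9, SEH1L and NDRG1 among them, hold it in neither the coding sequence nor the 3′ UTR.

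The nutrient-sensing branch leads from amino acid sensors through the GATOR complexes to the Rag GTPases and the Ragulator, which dock mTORC1 on lysosomes. SAMTOR alone was called without the block among its 9 tested genes of Rag GTPases and Ragulator, 10 of GATOR and KICSTOR, and 8 of nutrient sensors and folliculin. With the block, the Ragulator subunit LAMTOR4 (log2 fold change 0.51, adjusted p = 0.0161) and SEC13 (0.32, adjusted p = 0.0302), a GATOR2 subunit that also serves the COPII coat, were called higher by edgeR. ITFG2, a KICSTOR subunit, was called higher as well (0.55, adjusted p = 0.0290). SEH1L, a GATOR2 and nuclear pore protein, was called lower (-0.40, adjusted p = 0.0178), as was FNIP1, a partner of folliculin (-0.50, adjusted p = 0.0251). ITFG2 overlaps FOXM1, which had a mean FPKM of 24.3, on the opposite strand over 2112 bases. LAMTOR4 overlaps MAP11 on the opposite strand over 1525 bases.

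Among the other mTOR subunits and assembly factors, 0 of 7 passed edgeR's test without the block and 2 had an unadjusted p under 0.05. AKT1S1, which encodes the mTORC1 inhibitor PRAS40, was called higher with the block (log2 fold change 0.31, adjusted p = 0.0477, edgeR). TBC1D17 overlaps it on the opposite strand over 932 bases, with a mean FPKM of 5.38. Of the 3 genes of the TSC partner and the Rheb GTPases, none was called in either fit and 1 had an unadjusted p under 0.05. This was RHEB, the activator of mTORC1, at a log2 fold change of -0.23 with an adjusted p of 0.264 (edgeR).

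The PI3K and Akt arm, which carries growth factor signals to TSC2, had 4 estimates above 0 and 9 below and a median log2 fold change of -0.06. None of its 13 genes was called by edgeR in either fit, and 2 had an unadjusted p under 0.05. The lowest p in this arm was that of PIK3CB, a catalytic subunit of PI3K, at a log2 fold change of -0.27 (adjusted p = 0.222, edgeR). In the energy and stress arm, PRKAA2, the alpha 2 subunit of the energy sensor AMPK, was called higher with the block (0.63, adjusted p = 0.0104, edgeR).

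Among 12 partners and targets of the S6 kinases and 4E-BP, 9 estimates were above 0 and EIF4E2 was called lower. The helicase EIF4A1 (log2 fold change 0.29, adjusted p = 0.0347) and the elongation factor EEF2 (0.29, adjusted p = 0.0223) were called higher by edgeR with the block. EIF4A1 overlaps, on the same strand, the read-through gene SENP3-EIF4A1 (mean FPKM 15.4) and AC016876 (mean FPKM 14.8), so its reads could be split among them. Of 7 mTORC2 substrates and autophagy targets, ATG13, an autophagy starter that mTORC1 phosphorylates, was called higher with the block (0.27, adjusted p = 0.0404, edgeR). NDRG1, a target of SGK1 downstream of mTORC2, was called lower with it (-0.51, adjusted p = 0.00295, edgeR).

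**Figure D4:**
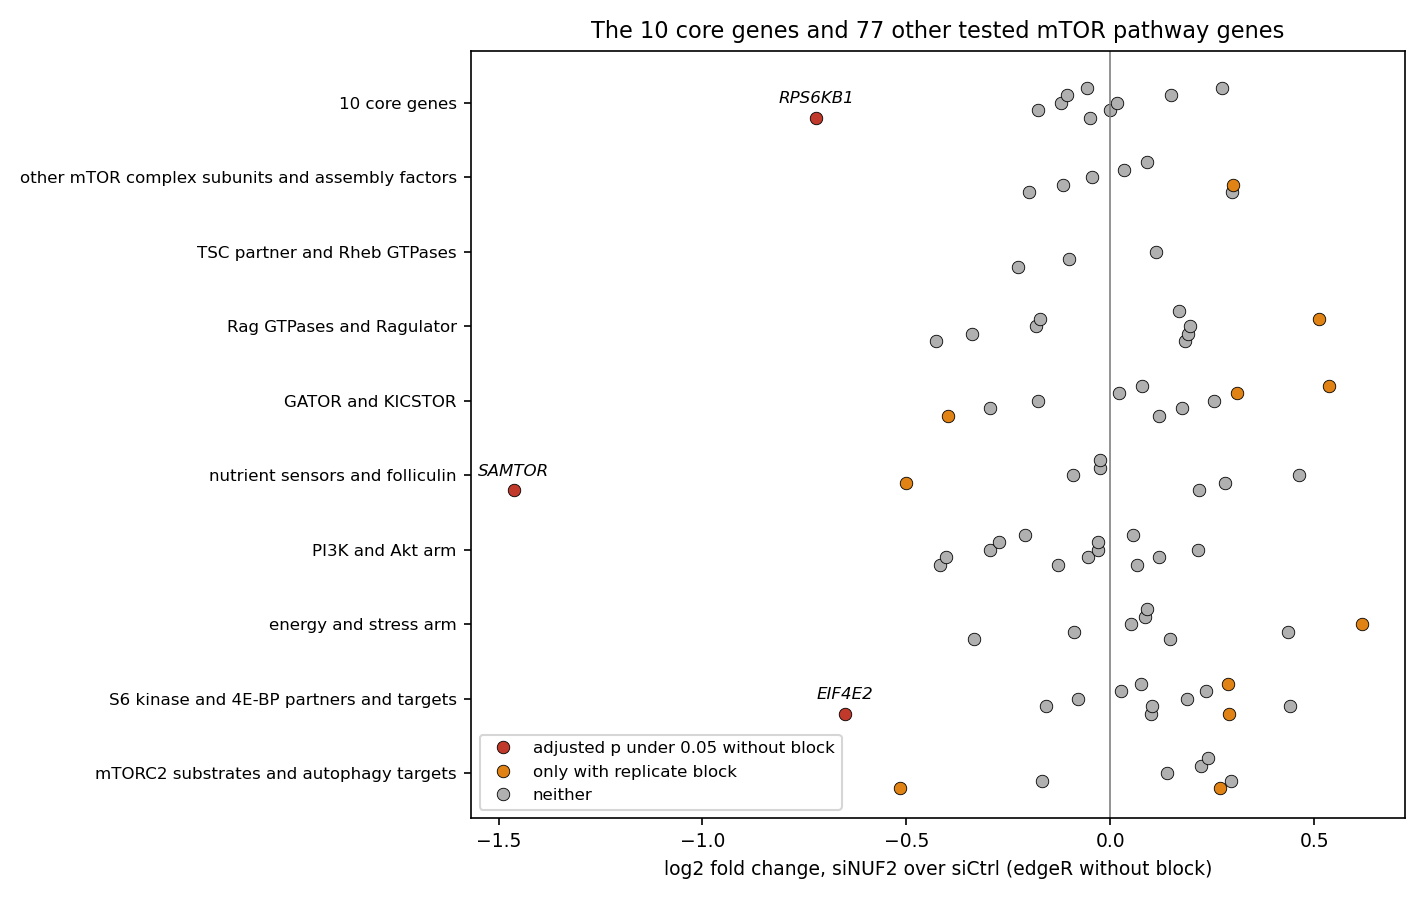
Log2 fold change of siNUF2 over siCtrl from edgeR without the block, 1 point per gene, for the 10 core genes and the 77 tested genes of the 9 pathway groups, with colours for genes called without the block, only with it, or in neither fit. RPS6KB1, EIF4E2 and SAMTOR (-0.72, -0.65 and -1.46) are the genes called without the block, and with it 8 of the 77 were called higher and 5 lower.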

How the data were processed

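RNA-seq of 8505C cells (3 siCtrl and 3 siNUF2 libraries) was analysed, grouped by the labels. Reads of 150 bases had been cleaned with fastp, aligned to GRCh38 with HISAT2 and calculated with StringTie. Versions, annotation release, strand setting and the tool behind the counts are not given in the sources used here. The authors deposited FPKM, scaled by a length per gene and by library size, beside counts, whole numbers per gene without normalization. All per-sample columns were used.

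Counts of genes that averaged an FPKM of 1 or more were tested with edgeR's quasi-likelihood test (TMM scaling, Benjamini-Hochberg adjustment over 11725 genes, threshold 0.05). The study's kind of F-test on FPKM, here with adjusted p-values, was an alternative. The p-values of the 4 ratios came from exact permutation tests. The named genes were the 10 core genes, NUF2, every pathway gene called with or without the replicate block, the gene with the lowest p of each pathway group, and the 3 genes most like RPS6KB1. The core genes and lists were chosen with earlier results of these data known. Replicate libraries were not copies of each other, since a chi-square test of their counts gave 60.9 to 86.8 per degree of freedom.

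Libraries of the same number deviated together from their group means (correlation across genes from 0.344 to 0.446). For other numbers it was -0.263 to -0.141. Deviations cancel within a group, so these negative values follow from the positive ones. The numbers therefore pair the libraries. Estimates and p-values given without mention of the block or of replicate numbers do not use this pairing. What a number shares is not stated. Words were searched in canonical transcripts of GENCODE release 44, on the build of the file, and the genomic windows are from GRCh38. Shares of tested genes that hold the word were not matched for transcript length. The marker TSHR was not analysed here, and some markers are not reported here. The alternatives were limma on log2(FPKM + 1) and log2(FPKM + 0.1), the F-test, no filter and a mean FPKM of at least 5, DESeq2 size factors, upper-quartile scaling, DESeq2, the block, and leaving out each library. The block without both libraries numbered 1 was added after seeing the data. R 4.3.3, edgeR 4.0.16, limma 3.58.1, DESeq2 1.42.0, Python 3.11.15, numpy 2.4.6, pandas 2.3.3 and matplotlib 3.10.9 were used, and the code was tested on simulated data.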

Additional observations from a re-analysis of the deposited data

How the results depend on the processing

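RPS6KB1 was lower in siNUF2 cells under all 16 alternatives that tested it (log2 fold change -0.77 to -0.61) and passed the threshold in 10 of them. With the replicate block it had an adjusted p of 0.00340 (edgeR), and the block changed no call among the 10 core genes. No core gene was called by the F-test on log2(FPKM + 1), without a filter (RPS6KB1 adjusted p = 0.0506) or with a mean FPKM of at least 5, which RPS6KB1 does not reach, against 1 in the report. Leaving out 1 library gave 0 to 1 core genes called. Over all genes, 468 were called in the report, 78 by the F-test, 188 without a filter, 972 by DESeq2, 1705 with the replicate block, 2359 by DESeq2 with the block, 1193 with the block and both libraries numbered 1 left out, and 124 to 251 with 1 library left out. For the pathway genes, against 2 in the report, the same settings gave 0 by the F-test, 6 by DESeq2, 13 with the block, 21 by DESeq2 with the block, 10 without both libraries numbered 1, and 1 to 2 with 1 library left out, and a mean FPKM of at least 5 gave 1. Signs turned only for core genes with estimates near 0 or, for RICTOR, with spread controls. RPS6KB2 (0.02) was at -8.4e-04 by limma and by the F-test on log2(FPKM + 1), at -6.8e-04 by limma on log2(FPKM + 0.1), and at -0.0039 with a mean FPKM of at least 5. TSC1 (-0.0012) was at 0.0029 without a filter and 2.7e-04 with the block. With 1 library left out, the log2 fold change ranged from -0.13 to 0.0063 for MTOR, -0.17 to 0.038 for RPTOR, -0.11 to 0.74 for RICTOR, -0.038 to 0.080 for RPS6KB2 and -0.035 to 0.051 for TSC1. With 1 library left out, the log2 difference of the ratios ranged from -0.09 to 0.17 for EIF4E to EIF4EBP1, -0.13 to 1.02 for RICTOR to RPTOR, -0.83 to -0.62 for RPS6KB1 to RPS6KB2 and 0.11 to 0.30 for TSC1 to TSC2.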
